A study of Homo sapiens with 6 samples.

Results

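The genes described here are the receptors of the EGFR family, their ligands and the receptors MET and AXL, in human keratinocytes transfected with a miR-21-3p mimic. They are 10 genes of a table of 22152: the receptors EGFR, ERBB2 and ERBB3, the ligands AREG, EREG, HBEGF, TGFA and BTC, and MET and AXL. They were selected on the same contrast that is described below, since MET was picked as a rise and AXL as a fall after transfection, while the EGFR family and its ligands were listed by function. Their values are therefore given as a description, with no test. AREG had no row in the table used and is not analysed here, so 9 genes had values, and all 9 passed the filter on low values.

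EGFR, ERBB2 and ERBB3 are receptor tyrosine kinases of the cell surface. A ligand such as TGFA, HBEGF, EREG or BTC is made as a membrane-bound precursor, is shed by a protease and brings the receptors together in pairs, which starts the RAS-ERK and PI3K-AKT cascades in the cell. ERBB2 has no known ligand of its own and ERBB3 has little kinase activity, so both work mainly in pairs with another member. In the epidermis this signalling drives the growth and migration of keratinocytes, and keratinocytes make several of the ligands themselves. MET, the receptor of hepatocyte growth factor, and AXL, a receptor of GAS6, belong to other receptor families that feed into the same cascades.

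HaCaT cells, a keratinocyte line that became immortal in culture without a transforming agent, received 1 nM of a synthetic miR-21-3p mimic or 1 nM of a negative control (NC) mimic, and polyadenylated RNA was sequenced 48 h later. Each group held 3 biological replicates, and both groups differed in the transfected mimic alone, as far as the labels tell. Values are normalized counts, the reads of a gene divided by a factor for the depth of its library. The reads recovered from these values came to 24402946, 24529424 and 26173244 in NC replicates 1, 2 and 3, and to 24802261, 24976223 and 27981281 in mimic replicates 1, 2 and 3. The cells carried the marks of keratinocytes, with KRT5 between 123000 and 139000 normalized counts in the 6 samples and all 10 keratinocyte markers examined past the filter.

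The NC libraries were spread out, with NC replicate 2 at the end nearer to the mimic libraries. On the first principal component of all genes kept, which held 46.7% of the variance, NC replicates 1, 2 and 3 lay at -21.3, -1.9 and -13.3 and mimic replicates 1, 2 and 3 at 11.8, 6.9 and 17.8. Over all genes NC replicate 2 differed more from NC replicate 1 (Pearson's r = 0.9939 across genes on the log2 scale, where genes are not independent replicates, and a chi-square per degree of freedom of 9.27 between their recovered reads), while it was about as close to NC replicate 3 (0.9956 and 5.22) as NC replicates 1 and 3 were to each other (0.9953 and 4.86). Its values were also about as close to those of mimic replicates 1 (0.9948 and 5.72) and 2 (0.9952 and 6.02), and it differed from mimic replicate 3 (0.9944 and 9.27) about as much as from NC replicate 1. Among the 9 genes it was also the NC value nearest to the mimic mean for 5: EGFR, ERBB2, ERBB3, AXL and EREG. Differences are therefore given with and without this library.

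EGFR (ENSG00000146648), the receptor to which all of the listed ligands bind, had 31900, 27400 and 30300 normalized counts in NC replicates 1, 2 and 3. With the miR-21-3p mimic it had 26400, 27100 and 23800. Every mimic sample lay below every NC sample, but NC replicate 2 and mimic replicate 2 were only narrowly apart. The log2 difference, mimic minus NC and taken on log2(normalized count + 1), was -0.21 ± 0.07 (SE, n = 3 and 3), and -0.27 without NC replicate 2. Without NC replicate 1 it was -0.16. The SE of log2 differences, here and below, is that of the fit over all genes (limma), not of the replicates of 1 gene alone. ERBB2 (ENSG00000141736), the partner receptor without a ligand, had 6720, 6310 and 6420 normalized counts with the NC mimic and 6040, 6110 and 5790 with the miR-21-3p mimic. Here too the groups did not overlap, with a smaller log2 difference of -0.12 ± 0.04 (SE, n = 3 and 3), or -0.14 without NC replicate 2. This difference was -0.09 without NC replicate 1. ERBB3 (ENSG00000065361), which recruits PI3K, had 3350, 3060 and 3220 normalized counts with the NC mimic and 3020, 3110 and 3110 with the miR-21-3p mimic. Its groups overlapped, since NC replicate 2 lay among the mimic samples, and its log2 difference of -0.06 ± 0.05 (SE, n = 3 and 3) was about as large as its error (-0.09 without NC replicate 2 and -0.03 without NC replicate 1). As the plot of normalized counts by sample shows, the 3 receptors of the family all had lower means after transfection of the miR-21-3p mimic, in the order EGFR, ERBB2, ERBB3 by size of the difference.

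The exons of ERBB2 share 571 bases with MIEN1 and 194 bases with PGAP3, both on the opposite strand, in the GENCODE 29 annotation. The libraries were made with a stranded kit, but whether the counting used the strand is not given in the sources used here, so reads of these overlaps cannot be assigned with certainty. MIEN1 had 693, 753 and 742 normalized counts in NC replicates 1, 2 and 3 and 817, 793 and 848 in the mimic replicates, so its mean differed from NC in the direction opposite to that of ERBB2. PGAP3 had 581, 570 and 557 normalized counts with the NC mimic and 523, 570 and 549 with the miR-21-3p mimic, a lower mean as for ERBB2, with overlapping groups. For EGFR the antisense gene EGFR-AS1 shares 186 exon bases and had no row in the table used.

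MET (ENSG00000105976) had 2790, 2710 and 2840 normalized counts in NC replicates 1, 2 and 3, and 3720, 3930 and 3690 with the miR-21-3p mimic. The groups were well apart and the replicates within each lay close together, with means of 2780 ± 65.6 and 3780 ± 131 (SD, n = 3). The log2 difference was 0.44 ± 0.05 (SE, n = 3 and 3), a ratio of means of 1.36, and was 0.42 without NC replicate 2. AXL (ENSG00000167601) had 1250, 1050 and 1140 normalized counts with the NC mimic and 895, 877 and 824 with the miR-21-3p mimic. All 3 mimic samples lay below the lowest NC sample, which was replicate 2. The log2 difference of AXL was -0.40 ± 0.07 (SE, n = 3 and 3), a ratio of means of 0.755, and was -0.46 without NC replicate 2. Without NC replicate 1 it was -0.34. MET and AXL were the genes picked for their direction, so these differences restate the choice.

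Among the ligands, EREG (epiregulin, ENSG00000124882), which binds EGFR and ERBB4, had 183, 231 and 199 normalized counts in NC replicates 1, 2 and 3 and 297, 257 and 280 with the miR-21-3p mimic. The groups did not overlap, and the highest NC value was that of replicate 2. The log2 difference of EREG was 0.45 ± 0.11 (SE, n = 3 and 3), as large as that of MET but with about double this SE. It was 0.54 without NC replicate 2 and 0.37 without NC replicate 1. The SD of the replicates within groups, on the log2 scale, was 0.141 for EREG and 0.0425 for MET. TGFA (ENSG00000163235), a ligand that keratinocytes make for their own EGFR, had 1870, 1860 and 1810 normalized counts with the NC mimic and 2040, 2050 and 2000 with the miR-21-3p mimic. Its replicates were the tightest of the ligands measured, and its log2 difference of 0.14 ± 0.04 (SE, n = 3 and 3) was the same to 2 decimals without NC replicate 2. HBEGF (ENSG00000113070), a heparin-binding ligand involved in wound closure, had 311, 251 and 286 normalized counts with the NC mimic and 300, 339 and 290 with the miR-21-3p mimic. Its groups overlapped, and its log2 difference of 0.13 ± 0.10 (SE, n = 3 and 3) came to 0.05 without NC replicate 2, 0.20 without NC replicate 1 and 0.07 without mimic replicate 2. BTC (betacellulin, ENSG00000174808) had 109, 153 and 120 normalized counts with the NC mimic and 111, 111 and 114 with the miR-21-3p mimic. Its mimic samples lay within the range of the NC samples, and its log2 difference went from -0.17 ± 0.14 (SE, n = 3 and 3) to -0.03 without NC replicate 2 and -0.27 without NC replicate 1.

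**Figure D1:**
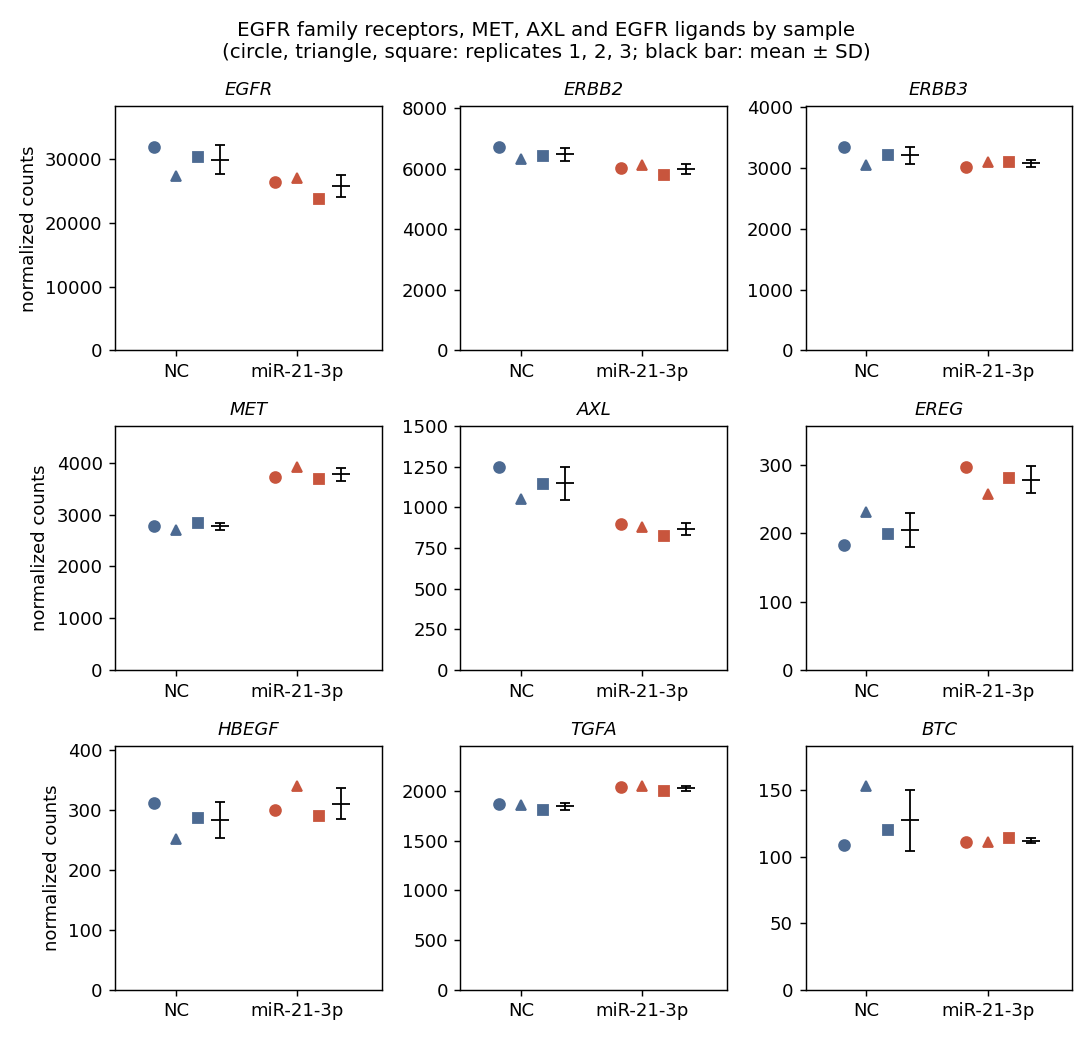
Normalized counts (y axis, from 0) of the 9 genes in the 3 NC samples (blue) and the 3 miR-21-3p mimic samples (orange), with circles, triangles and squares for replicates 1, 2 and 3 and a black bar for the mean ± SD of the group. MET, EREG and TGFA are above all NC samples in every mimic sample, EGFR, ERBB2 and AXL are below them, and ERBB3, HBEGF and BTC overlap.

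In all, 3 of the 9 genes had every mimic sample above every NC sample (MET, EREG and TGFA), 3 had every mimic sample below (EGFR, ERBB2 and AXL) and 3 overlapped. Across the 14795 genes tested, 16.5% had every mimic sample above and 14.8% had every mimic sample below. Since the contrast was used to choose the genes, nothing is read from these counts. At an adjusted p under 0.05 over all genes tested, 6.11% of all genes were called higher and 4.66% lower. None of the 9 differences reached 1 on the log2 scale, and of the 1593 genes called in all only 10 did. The median log2 difference of all genes tested was 0.00, the median of its absolute size was 0.11, and 5% of genes lay below -0.35 and 5% above 0.31. MET, EREG and AXL were beyond these limits and the other 6 genes were within them.

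The promoters of MET, EREG and AXL are printed as those of the genes with the largest differences. They run from 250 bases before to 50 bases after the transcription start and come from RefSeq (GRCh38.p14), whose promoter table matched 9 of the 10 genes, all but ERBB3. Capitals mark matches, on either strand, to the letters GGGCGG (a GC box, the motif of SP1), TGANTCA (AP-1), TGACGTCA (CRE) and GGAATG (TEAD). The start of AXL is the first of 2 in that table. The 3 windows lie at chr7:116671946-116672245, chr4:74364895-74365194 and chr19:41218973-41219272, all on the plus strand.
MET: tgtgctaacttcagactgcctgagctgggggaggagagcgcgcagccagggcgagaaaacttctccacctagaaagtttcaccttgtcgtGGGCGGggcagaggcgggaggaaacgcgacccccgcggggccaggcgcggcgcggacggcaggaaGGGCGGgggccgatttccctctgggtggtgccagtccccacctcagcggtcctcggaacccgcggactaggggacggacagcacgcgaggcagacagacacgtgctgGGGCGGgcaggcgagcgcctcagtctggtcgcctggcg
EREG: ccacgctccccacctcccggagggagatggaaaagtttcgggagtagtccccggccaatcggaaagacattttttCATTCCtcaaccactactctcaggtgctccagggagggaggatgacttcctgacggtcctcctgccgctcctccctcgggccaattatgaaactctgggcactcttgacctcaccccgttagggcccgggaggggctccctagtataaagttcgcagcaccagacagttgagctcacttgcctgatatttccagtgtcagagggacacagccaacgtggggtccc
AXL: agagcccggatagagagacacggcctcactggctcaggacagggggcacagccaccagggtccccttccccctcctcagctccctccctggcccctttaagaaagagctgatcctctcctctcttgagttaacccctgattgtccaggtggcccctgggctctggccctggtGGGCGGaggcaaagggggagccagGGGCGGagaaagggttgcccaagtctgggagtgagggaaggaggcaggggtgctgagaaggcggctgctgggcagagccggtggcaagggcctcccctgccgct
MET held 3 GC boxes and AXL 2 in these windows, and neither window held a match to the other motifs. EREG held no GC box and 1 TEAD match, which lies on the minus strand, so that the printed plus strand reads CATTCC. The window of the other AXL start, at chr19:41226505-41226804 on the plus strand, held no GC box and 1 TEAD match, also CATTCC on the plus strand. Of all 35116 promoters in that table, 45% held a GC box, 14% a TEAD match, 7.71% an AP-1 match and 1.85% a CRE match. MET and EREG, the genes with the largest positive differences, shared no motif of those searched in these windows. A match is a description of the letters only, and binding was not measured.

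EREG and BTC lie close together on chromosome 4, in the order EPGN, EREG, AREG, BTC among protein-coding genes of RefSeq (GRCh38.p14). These neighbours differed in their values. EPGN (epigen), a low-affinity EGFR ligand, had 35.4, 39.1 and 30.3 normalized counts with the NC mimic and 39.8, 44.0 and 46.7 with the miR-21-3p mimic. All mimic samples of EPGN and EREG were above all NC samples, whereas those of BTC were not. The next gene before EPGN, MTHFD2L, had 298, 361 and 330 normalized counts with the NC mimic and 324, 339 and 369 with the miR-21-3p mimic, which overlapped.

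Levels were compared between genes as normalized counts per kilobase of exon, with exon lengths from GENCODE 29, since the annotation used for the counting is not given in the sources used here. With the NC mimic EGFR had the highest level of the 9 genes, 2385 per kilobase, followed by ERBB2 (628), MET (395), TGFA (372), ERBB3 (355), AXL (222), HBEGF (93.7), BTC (45.2) and EREG (35.7). The sample ranges of TGFA and ERBB3 overlapped, as did those of BTC and EREG, and the other neighbours in this order were apart in every sample. With the miR-21-3p mimic MET stood at 537 per kilobase, nearer to ERBB2 at 579, but the highest MET sample (558) was below the lowest ERBB2 sample (561). EREG (48.6 per kilobase, lowest sample 45.0) was then above BTC (39.8, highest sample 40.5).

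The share of EGFR in the summed level of EGFR, ERBB2 and ERBB3 per kilobase was 71.4%, 69.7% and 71.2% in NC replicates 1, 2 and 3 and 69.6%, 69.8% and 67.7% in mimic replicates 1, 2 and 3. EGFR thus made up most of the family's transcripts in all 6 samples, and the groups overlapped. The summed level of the 4 ligands measured was 551, 553 and 537 per kilobase with the NC mimic and 602, 610 and 589 with the miR-21-3p mimic. TGFA made up between 67.7% and 68.5% of this sum in every sample, and every mimic sum was above every NC sum. AREG is not part of this sum.

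The genes whose profile over the 6 samples was closest to that of MET, out of 10616 genes with a mean log2 CPM (recovered reads scaled to equal library size) of at least 3, were SSFA2, CALM2P2 and KREMEN2. Their log2 CPM values, centred on the NC mean, had root mean square differences from MET of 0.042, 0.045 and 0.052. CALM2P2 is a pseudogene copy of CALM2, so its reads may be shared with that gene.

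The relatives of these genes were the other members of the EGF, MET and TAM (TYRO3, AXL, MERTK) families, 14 genes listed by family. EGF, NRG3, HGF and PROS1 had no row in the table used, and the other 10 were tested with limma over all genes. Across all genes 904 were called higher (6.11%) and 689 lower (4.66%), and among the 10 relatives 1 rose and 1 fell. TYRO3, a sister receptor of AXL, had 1040, 989 and 1040 normalized counts with the NC mimic and 1250, 1110 and 1180 with the miR-21-3p mimic, a log2 difference of 0.20 ± 0.06 (SE, adjusted p = 0.043). NRG4, a ligand of ERBB4, had 359, 354 and 358 normalized counts with the NC mimic and 296, 288 and 304 with the miR-21-3p mimic, a log2 difference of -0.27 ± 0.08 (SE, adjusted p = 0.04). TYRO3 and AXL thus differed from NC in opposite directions. The other TAM receptor, MERTK (log2 difference 0.19 ± 0.17, SE), and the ligand of these receptors, GAS6 (-0.09 ± 0.05), did not pass the test.

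ERBB4, the fourth receptor of the EGFR family, had 262, 173 and 255 normalized counts with the NC mimic and 150, 180 and 158 with the miR-21-3p mimic. Its log2 difference of -0.48 ± 0.15 (SE, adjusted p = 0.058) did not pass the test, and the groups overlapped through NC replicate 2. The ligands NRG1 (0.13 ± 0.07), NRG2 (-0.24 ± 0.11) and EPGN (0.31 ± 0.18), the MET relative MST1R (0.05 ± 0.05) and its ligand MST1 (-0.40 ± 0.17) did not pass it either, as log2 differences with their SE. The median log2 difference of the 10 relatives was -0.02. On the recovered reads edgeR called 1 relative higher and 2 lower, and DESeq2 0 and 1, with neither TYRO3 nor NRG4 called by DESeq2. Without NC replicate 2, TYRO3 was no longer called and 3 relatives were called lower. Of the 6 libraries, TYRO3 kept its call only when mimic replicate 2 was left out, and NRG4 only when NC replicate 2 was left out.

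**Figure D2:**
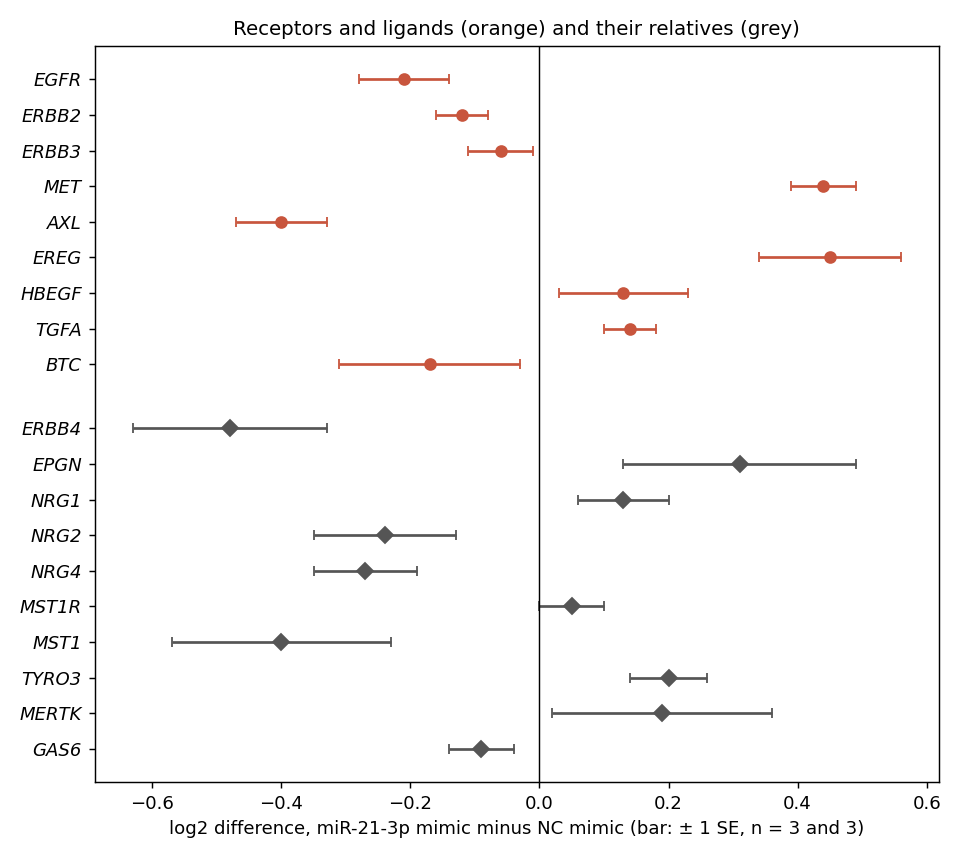
Log2 difference, miR-21-3p mimic minus NC mimic, of the 9 genes (orange circles) and of their 10 relatives with values (grey diamonds), with bars of ± 1 SE (n = 3 and 3). MET and EREG lie near 0.44 and 0.45 and AXL near -0.40, and ERBB4, at -0.48, has a wider bar than EGFR, ERBB2 and ERBB3.

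The 8 lists of genes around these receptors (their relatives, the shedding of ligands, the cascades below the receptors, their inhibitors, responsive transcripts and other receptor tyrosine kinases) held 177 distinct genes, of which 133 were tested. Of these, 20 rose (15%) and 8 fell (6.02%), and their median log2 difference was 0.03. Over all genes 6.11% were called higher and 4.66% lower. Both counts depended on single libraries. For all genes, 313 higher and 229 lower were called without NC replicate 1, 1627 and 1330 without NC replicate 2, 95 and 81 without NC replicate 3, 146 and 131 without mimic replicate 1, 899 and 642 without mimic replicate 2, and 202 and 163 without mimic replicate 3. For the lists, the counts were 10 and 2 without NC replicate 1, 20 and 13 without NC replicate 2, 4 and 1 without NC replicate 3, 6 and 1 without mimic replicate 1, 15 and 8 without mimic replicate 2, and 9 and 1 without mimic replicate 3. GADD45A, MYC, DUSP6 and EPHA4 were called in the same direction in all 16 other settings tried.

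Among inhibitors of the receptors and of ERK signalling, 7 of 23 tested were called higher and 0 lower by limma. The shares of all genes tested that were called so were 6.11% and 4.66%. At an unadjusted p under 0.05, 9 were higher and 2 lower, where 15.3% of all genes tested were higher and 13.2% lower at that threshold, while on the recovered reads edgeR called 7 higher and 0 lower and DESeq2 6 and 0. SPRY1, a Sprouty inhibitor of RAS-ERK signalling with few reads, had 35.4, 33.0 and 22.5 normalized counts with the NC mimic and 54.1, 55.3 and 44.0 with the miR-21-3p mimic, a log2 difference of 0.75 ± 0.21 (SE, adjusted p = 0.04). It was not called in 7 of the 16 other settings, namely DESeq2, a minimum of 50 reads (which it did not reach in 3 samples) and every fit with 1 library left out but that without NC replicate 2. SPRY4, of the same family, had 154, 172 and 152 and then 230, 237 and 232 normalized counts, a log2 difference of 0.55 ± 0.10 (SE, adjusted p = 0.0082). DUSP6, the phosphatase that inactivates ERK, had 1040, 1210 and 1040 normalized counts with the NC mimic and 1510, 1420 and 1460 with the miR-21-3p mimic, a log2 difference of 0.42 ± 0.06 (SE, adjusted p = 0.005). ERRFI1 (MIG6), which binds and inhibits EGFR itself, had 1040, 1170 and 1030 and then 1360, 1280 and 1420 normalized counts, a log2 difference of 0.33 ± 0.06 (SE, adjusted p = 0.011). In each of these 4 genes all 3 mimic samples were above all 3 NC samples. The other 3 that rose, named after their values were seen, were SPRED1, UBASH3B and PTPN1, with log2 differences of 0.27, 0.26 and 0.25. The median of the list was 0.04, with 15 genes above 0 and 8 below, and the log2 differences ran from -0.15 to 0.75. The ubiquitin ligase CBL, which marks EGFR for breakdown and was named after its values were seen, was at 0.02 ± 0.05 (SE). The count of genes that rose was 4 without NC replicate 1, 1 without NC replicate 3, 2 without mimic replicate 1, 4 without mimic replicate 3 and 7 without NC replicate 2, and 1 inhibitor was called lower without mimic replicate 2.

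Of the 18 ERK-responsive transcripts tested, 5 rose and 0 fell by limma (6.11% and 4.66% of all genes). At an unadjusted p under 0.05, 8 were higher and 0 lower (15.3% and 13.2% of all genes). On the recovered reads, 5 rose and 0 fell both by edgeR and by DESeq2. The median log2 difference of this list was 0.14, against 0.00 for all genes. ETV4, an ETS-family factor, had 700, 756 and 635 normalized counts with the NC mimic and 887, 879 and 1010 with the miR-21-3p mimic, a log2 difference of 0.41 ± 0.08 (SE, adjusted p = 0.01). MYC had 3180, 2730 and 2740 and then 3760, 3860 and 3590 normalized counts, a log2 difference of 0.38 ± 0.06 (SE, adjusted p = 0.0055). PHLDA1 (0.34 ± 0.06, adjusted p = 0.0078) and IER3 (0.28 ± 0.06, adjusted p = 0.017) rose as well, and LIF, named after its values were seen, rose by 0.24 ± 0.07 (SE, adjusted p = 0.049). LIF was not called in 11 of the 16 other settings, among them DESeq2, limma after TMM rescaling, limma without the filter on low values and each fit with 1 library left out. The immediate early genes FOS (-0.07 ± 0.14), JUN (0.16 ± 0.09) and EGR1 (0.24 ± 0.10) did not pass the test, and they too were named after their values were seen. FOSB, of the same kind and likewise named afterwards, had 105, 88.6 and 93.7 and then 47.9, 88.1 and 85.2 normalized counts. Every mimic sample of FOSB lay below every NC sample, but NC replicate 2 and mimic replicate 2 were only narrowly apart. The log2 difference of FOSB, -0.42 ± 0.21 (SE, adjusted p = 0.2), was the lowest of the list and did not pass the test. FOSL1, an AP-1 subunit also named after its values were seen, had the highest log2 difference of the list, 0.49 ± 0.15 (SE, adjusted p = 0.054), and did not pass it either. The count of transcripts that rose was 3 without NC replicate 1, 1 without NC replicate 3, 3 without mimic replicate 1, 3 without mimic replicate 3 and 6 without NC replicate 2. Phosphorylation of ERK was not measured in these data.

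**Figure D3:**
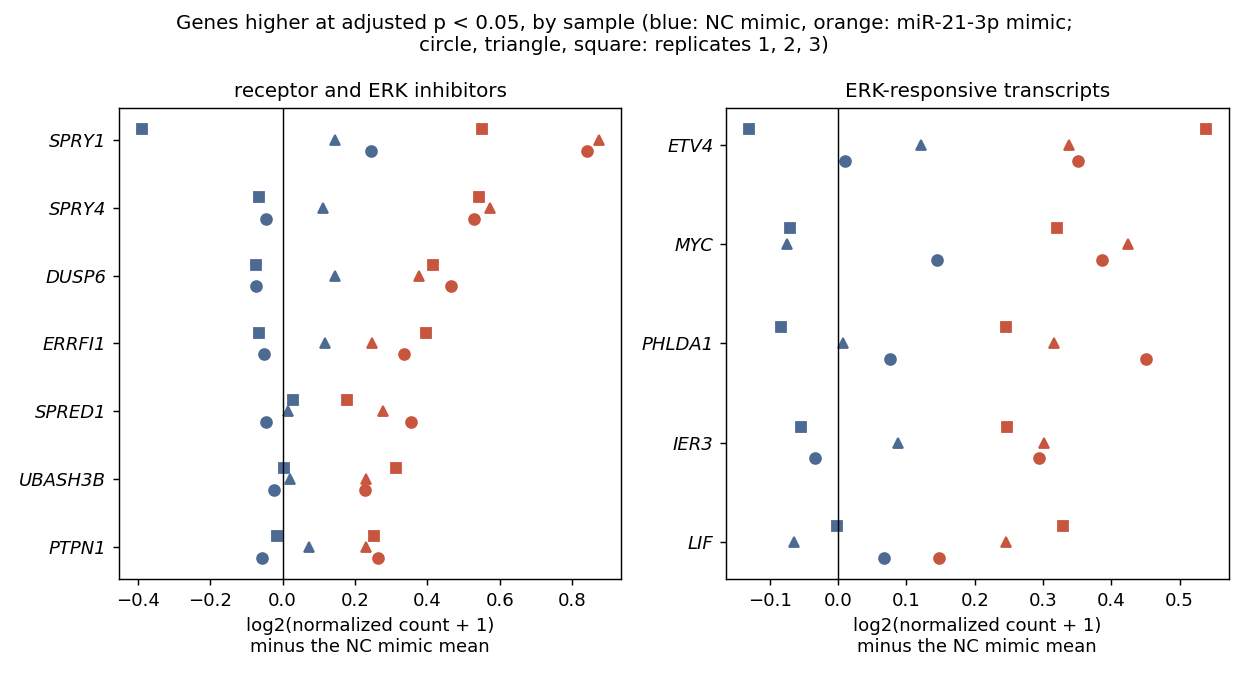
Log2(normalized count + 1) minus the mean of the NC samples (x axis) for the 7 inhibitors and the 5 ERK-responsive transcripts that rose, in NC samples (blue) and miR-21-3p mimic samples (orange), with circles, triangles and squares for replicates 1, 2 and 3. Every mimic sample lies to the right of every NC sample in each gene, and NC replicate 2 is the NC sample nearest to the mimic samples for SPRY4, DUSP6, ERRFI1, UBASH3B, PTPN1, ETV4 and IER3.

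Of the 8 shedding genes tested none was called by limma, none at an unadjusted p under 0.05, and 0 by edgeR and 0 by DESeq2 on the recovered reads. Their log2 differences ran from -0.09 to 0.09, with ADAM17, the main sheddase of TGFA, HBEGF and EREG, at 0.05 ± 0.05 (SE) and ADAM10, that of BTC, at 0.01 ± 0.04. Of the 21 adaptors and members of the RAS-ERK cascade, 2 rose and 1 fell by limma. Over all genes 6.11% were called higher and 4.66% lower. At an unadjusted p under 0.05, 4 of the list were higher and 3 lower (15.3% and 13.2% of all genes). On the recovered reads edgeR called 1 higher and 1 lower and DESeq2 1 and 0. NRAS had 2170, 2270 and 2390 normalized counts with the NC mimic and 2760, 2710 and 2620 with the miR-21-3p mimic, a log2 difference of 0.24 ± 0.05 (SE, adjusted p = 0.013). PTPN11 (SHP2), a phosphatase that transmits receptor signals to RAS, was at 0.15 ± 0.04 (SE, adjusted p = 0.048), and the FGF receptor adaptor FRS2 at -0.18 ± 0.05 (SE, adjusted p = 0.042). PTPN11 was not called in 12 of the 16 other settings, among them every fit with edgeR or DESeq2, limma after TMM rescaling and limma without the filter on low values. FRS2 was not called in 7, DESeq2 among them. When single libraries were left out, NRAS lost its call without mimic replicate 1 alone, while PTPN11 and FRS2 kept theirs only without NC replicate 2. Of 15 genes of the PI3K-AKT and PLC-gamma arm, 2 rose and 0 fell by limma (6.11% and 4.66% of all genes). They were MTOR (0.27 ± 0.06, adjusted p = 0.015) and AKT1 (0.17 ± 0.04, adjusted p = 0.035). At an unadjusted p under 0.05, 5 of this arm were higher and 1 lower (15.3% and 13.2% of all genes). On the recovered reads, 2 rose and 0 fell both by edgeR and by DESeq2. MTOR lost its call without NC replicate 3, mimic replicate 1 or mimic replicate 3, and AKT1 kept its call only without NC replicate 2.

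Among other receptor tyrosine kinases all calls were downward. Of the 49 in the list 31 had no row in the table used, so their levels are not known here. Of the 18 tested, 4 fell and 0 rose by limma (4.66% and 6.11% of all genes). At an unadjusted p under 0.05, 7 were lower and 2 higher (13.2% and 15.3% of all genes). On the recovered reads, 5 fell and 0 rose both by edgeR and by DESeq2. EPHA4, an ephrin receptor, had 374, 319 and 345 normalized counts with the NC mimic and 257, 211 and 213 with the miR-21-3p mimic, a log2 difference of -0.61 ± 0.10 (SE, adjusted p = 0.0067). INSR, the insulin receptor (-0.43 ± 0.11, adjusted p = 0.025), IGF1R, its relative for IGF1 (-0.26 ± 0.05, adjusted p = 0.015), and FGFR3, an FGF receptor (-0.20 ± 0.05, adjusted p = 0.029), fell as well. The median log2 difference of the list was -0.12, with 13 genes below 0 and 5 above. The count of receptors that fell was 1 without NC replicate 1, without NC replicate 3, without mimic replicate 1 or without mimic replicate 3, and 7 without NC replicate 2.

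Of 21 YAP-TEAD-responsive transcripts, a list taken because AXL is known as a YAP target, 3 rose and 2 fell by limma, and their median was -0.01. Over all genes 6.11% were called higher and 4.66% lower. At an unadjusted p under 0.05, 4 of the list were higher and 2 lower (15.3% and 13.2% of all genes). On the recovered reads edgeR called 3 and 2 and DESeq2 2 and 2, and limma without the filter on low values 3 and 1. ANKRD1 (0.50 ± 0.14, adjusted p = 0.038), GADD45A (0.48 ± 0.06, adjusted p = 0.0016) and F3 (0.16 ± 0.04, adjusted p = 0.038) rose, and CCDC80 (-0.34 ± 0.07, adjusted p = 0.017) and IGFBP3 (-0.21 ± 0.06, adjusted p = 0.042) fell, as log2 differences with their SE. The widely used YAP targets CCN1 (0.09 ± 0.07) and CCN2 (0.08 ± 0.17) did not pass the test and were named after their values were seen. When single libraries were left out, GADD45A kept its call throughout, ANKRD1 and F3 only without NC replicate 2, CCDC80 without NC replicate 2 or mimic replicate 2, and IGFBP3 without NC replicate 1, NC replicate 2 or mimic replicate 2. In the list 10 log2 differences were above 0 and 11 below. The part of YAP in the value of AXL was not tested.

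**Figure D4:**
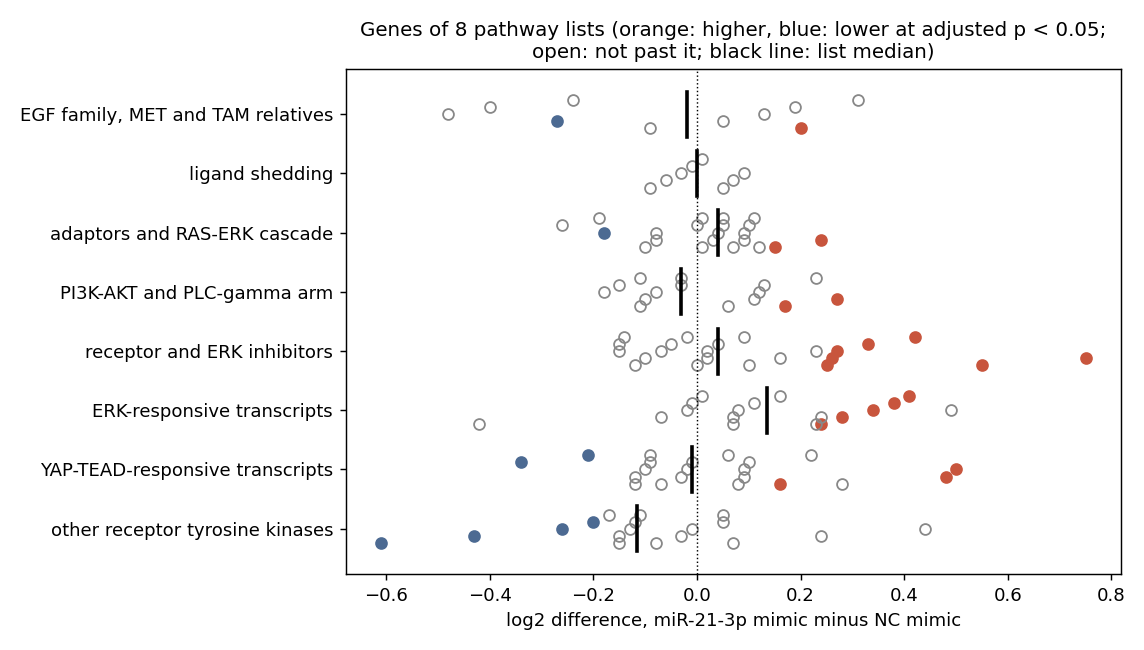
Log2 difference, miR-21-3p mimic minus NC mimic (x axis), of the genes tested in each of the 8 lists, with filled points for genes past the threshold (orange for higher, blue for lower), open points for the others and a black line for the median of the list. All called inhibitors and ERK-responsive transcripts lie right of 0 and all called receptor tyrosine kinases left of it.

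Some markers moved with the groups. Of the 10 keratinocyte markers, KRT15 (-0.33 ± 0.06, adjusted p = 0.01) and ITGB4 (-0.26 ± 0.07, adjusted p = 0.038) fell by limma and 0 rose. Over all genes 4.66% were called lower and 6.11% higher. The groups of ITGB4 overlapped. The median log2 difference of the list was -0.08, with 3 genes above 0 and 7 below. SFN was the highest, at 0.15 ± 0.05 (SE, adjusted p = 0.055), and did not pass the test. Every mimic sample of SFN lay above every NC sample. The summed normalized counts of this list, of which KRT5 was the most abundant, were 397990, 372780 and 397880 with the NC mimic and 367060, 383420 and 348260 with the miR-21-3p mimic. Of the 7 fibroblast markers only COL1A1 had a row, with 560, 390 and 478 and then 372, 378 and 364 normalized counts. A marker without a row was not shown to be at 0, since 5278 rows at 0 in all 6 samples were kept. Of the 5 melanocyte markers only PMEL had a row, with 155, 120 and 128 and then 145, 152 and 126. Of the leukocyte and endothelial markers, 3 had a row in the table used, and their sum, led by VWF, was 1287, 1146 and 1198 with the NC mimic and 969, 1017 and 952 with the miR-21-3p mimic. Of these CDH5 alone fell, from 477, 286 and 393 to 165, 178 and 122 normalized counts, a log2 difference of -1.29 ± 0.17 (SE, adjusted p = 0.0026). Mitochondrial transcripts took 9.01%, 8.91% and 9.42% of all normalized counts in NC replicates 1, 2 and 3 and 8.4%, 8.61% and 8.33% in the mimic replicates. The part of these markers and of mitochondrial transcripts in the values of the receptors and ligands was not tested. In whole cultures a change in the share of cells that express a gene and a change in RNA per cell cannot be told apart.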

How the data were processed

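Per the labels, HaCaT RNA was sequenced as stranded polyA libraries, whereas the study's methods describe small RNA libraries; the table holds protein-coding genes such as KRT5, and the labels were followed. The submitters' processing notes name bcl2fastq 2.18.12, cutadapt 1.15, TopHat2 2.1.1, featureCounts (Subread 1.5.2) and DESeq2. The genome build is not given in the sources used here. The deposited signal is gene counts divided by size factors, written with 3 significant digits. In every sample 100% of the values under 50 reads were whole multiples of 1 read within 0.1 (2283 to 2502 values per sample), which gave the depths. A count test had been foreseen, but since the values are normalized, limma 3.58.1 (trend, R 4.3.3) was fitted to log2(value + 1) of the 14795 genes with a value of at least 10 in at least 3 samples, with Benjamini-Hochberg adjustment and a threshold of 0.05. It was tested on simulated data. edgeR 4.0.16 with TMM factors on the recovered reads, added after seeing the data, called 880 genes higher and 764 lower. Of each list up to 4 called genes per direction with the largest differences were named, and all relatives past the filter. The 10 genes and the lists were chosen with earlier results of these data known. Alternatives were other normalizations and tests (DESeq2 1.42.0 included), filters, pseudocounts, a replicate block and leaving out each replicate.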

Additional observations from a re-analysis of the deposited data

How the results depend on the processing

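Of 16 other settings, 4 were chosen after seeing the data (edgeR with TMM factors, limma after TMM rescaling, and pseudocounts of 0.5 and 5). None changed the sign of a log2 difference of the 9 receptors and ligands, but the other filters and the replicate block cannot move these differences, and leaving out 1 replicate can move them only within the spread of the replicates. MET ranged from 0.41 to 0.46, EREG from 0.37 to 0.54, EGFR from -0.27 to -0.16, ERBB2 from -0.14 to -0.09, ERBB3 from -0.09 to -0.03, AXL from -0.46 to -0.34, HBEGF from 0.05 to 0.20, TGFA from 0.12 to 0.15 and BTC from -0.27 to -0.03. Counts of called genes over all genes and over the lists together stayed within 1.5 times the reported ones under every other test, normalization, filter and pseudocount. Counts of the relatives, the adaptors and the YAP-TEAD list, all of 3 or fewer, did not. Leaving out each replicate in turn gave 95 to 1627 genes higher and 81 to 1330 lower over all genes, and 4 to 20 higher and 1 to 13 lower in the lists. All these fits had 5 samples. Without miR-21-3p mimic replicate 2 the counts over all genes were 899 and 642, close to those of all 6 samples. The cause of the differences between these fits was not tested. With replicate number as a replicate block, 681 genes were higher and 512 lower, and in the lists 15 were higher and 4 lower. The deviations of same-numbered samples correlated at 0.00, -0.20 and -0.16 over genes, so no pairing of the samples by number was seen. With 3 samples per group these values cannot show that there was none. At these depths the counting error is small for EGFR, MET and AXL, while SPRY1 (22.5 to 55.3 normalized counts), MERTK and EPGN rest on few reads per sample. Values with over 3 digits carry rounding.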
